A study of Mus musculus with 18 samples.

Results

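The granzyme and mast cell protease cluster on mouse chromosome 14 was described through 9 of its genes, Gzmb, Gzmc, Gzmd, Gzme, Gzmf, Gzmg, Mcpt8, Ctsg and Cma1, looked up by symbol among 56893 features of the Torin table and 56691 of the table with estradiol. The members were chosen from measured values, since Gzme and Mcpt8 were among the largest rises under Torin in the arm named D6. The Torin values of the members are therefore a description with no p-value in both arms, since it is not known whether the values of the arm D12 also entered the choice.

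Organoids were grown from mammary epithelial cells of nulliparous wild-type C57BL/6 mice, 3 glands from 3 mice, and their polyadenylated RNA was sequenced in 18 libraries, 3 in each of 6 groups. In the Torin experiment (mice of about 15 weeks, 18 days of culture in Matrigel droplets) the groups were Torin D6 and DMSO D6, and Torin D12 and DMSO D12, with Torin 1 at 100 nM and DMSO as its solvent control. In the estradiol experiment (mice of about 24 weeks, 12 days of culture) organoids received 10 nM estradiol or ethanol for 11 days. The sample titles give D6 and D12 as 6 and 12 days of treatment. The design text has these lengths the other way round, and the batch tag carries the arm as well, so that length, starting day and batch cannot be told apart. The labels do not say whether the 3 libraries of a group came from separate mice or cultures, so the spread between them may be technical.

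Granzymes are serine proteases with the trypsin fold that cytotoxic T cells and natural killer cells store in granules and deliver into target cells through the pore protein perforin. Their genes lie beside those of the related mast cell chymases, of cathepsin G in neutrophils and of Mcpt8, a protease of mouse basophils. Torin 1 inhibits the kinase mTOR, which couples nutrient and growth factor signals to cell growth, and estradiol is the hormone that drives growth of the mammary ducts. The study asked how mTOR inhibition and estrogen change the transcriptome of mammary organoids.

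The 250 bases before the transcription start are shown for 5 members, because Mcpt8, Gzme and Gzmc carried nearly all counts of the cluster while Ctsg, which lies between Mcpt8 and Gzme, and Gzmd, the near-copy of Gzme, did not. The sequences are from RefSeq on GRCm38.p6, minus strand, at chr14:56085198-56085447 (Mcpt8), chr14:56102575-56102824 (Ctsg), chr14:56120626-56120875 (Gzme), chr14:56132594-56132843 (Gzmd) and chr14:56234658-56234907 (Gzmc). Capitals mark matches to the motifs searched.
Mcpt8: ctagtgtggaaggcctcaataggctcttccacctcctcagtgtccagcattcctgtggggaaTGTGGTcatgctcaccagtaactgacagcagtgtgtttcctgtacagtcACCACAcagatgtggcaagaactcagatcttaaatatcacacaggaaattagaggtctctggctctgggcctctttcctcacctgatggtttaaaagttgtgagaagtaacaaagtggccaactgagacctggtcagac
Ctsg: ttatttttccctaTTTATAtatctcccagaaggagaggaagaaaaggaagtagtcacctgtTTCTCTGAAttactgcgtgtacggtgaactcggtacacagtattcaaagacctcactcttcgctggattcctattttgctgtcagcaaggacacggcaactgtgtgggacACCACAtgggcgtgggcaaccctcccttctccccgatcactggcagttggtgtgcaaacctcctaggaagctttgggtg
Gzme: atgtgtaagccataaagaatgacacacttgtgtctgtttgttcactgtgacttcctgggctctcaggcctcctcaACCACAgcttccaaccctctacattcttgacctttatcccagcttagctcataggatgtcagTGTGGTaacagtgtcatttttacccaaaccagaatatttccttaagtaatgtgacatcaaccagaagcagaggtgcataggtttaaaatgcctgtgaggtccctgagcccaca
Gzmd: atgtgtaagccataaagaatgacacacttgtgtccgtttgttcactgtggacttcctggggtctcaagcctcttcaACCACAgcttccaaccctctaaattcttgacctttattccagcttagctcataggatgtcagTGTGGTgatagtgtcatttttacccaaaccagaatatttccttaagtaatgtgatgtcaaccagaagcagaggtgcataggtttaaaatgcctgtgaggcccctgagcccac
Gzmc: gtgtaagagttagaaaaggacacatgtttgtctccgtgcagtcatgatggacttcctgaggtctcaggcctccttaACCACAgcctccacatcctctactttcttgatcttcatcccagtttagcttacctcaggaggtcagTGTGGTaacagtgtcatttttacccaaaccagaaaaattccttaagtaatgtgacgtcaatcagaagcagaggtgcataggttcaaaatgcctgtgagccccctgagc
Along the aligned bases the windows of Gzme and Gzmd were 95.6% identical, at 238 of 249 bases, and those of all pairs among Gzmc, Gzmd, Gzme, Gzmf and Gzmg were 84.4 to 95.6% identical. No other pair of members aligned over at least 200 bases. The RUNX motif ACCACA, read on both strands, was present in 8 of the 9 members, all but Cma1, against 14% of 32851 promoter windows of the same length. It was present at least 2 times in 7 members, against 1.27% of windows. In Gzme the matches began 175 and 113 bases before the start, in Gzmd 174 and 112, in Gzmc 174 and 108, and in Mcpt8 188 and 139. Since the 5 granzymes from Gzmc to Gzmg share most of their window, their matches are not separate observations. The motif was as present in Gzmd, Gzmf and Gzmg, which were near 0 counts, as in Gzme and Gzmc. Of the other motifs, that of the TATA box, spelled TATAAA, and the STAT motif, spelled TTCNNNGAA, matched in Ctsg alone among the members, against 12.4% and 7.02% of windows. In Ctsg the TATAAA match lay on the opposite strand and began 237 bases before the start, and the STAT match began 189 bases before it. The motif TGANTCA (AP-1) matched in Gzmb alone, against 6.75% of windows. No member held the GATA motif, spelled AGATAA, the FOXO motif, spelled GTAAACA, or the E-box, spelled CACGTG, which were in 9.99%, 3.17% and 6.02% of windows. No motif overlapped another in the 5 sequences shown. These matches describe the letters in a window and were not linked to binding.

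Values are counts and CPM, the count in relation to the library's total after scaling with edgeR's TMM factors, which puts libraries of different depth on a common scale. A member was taken as too low to judge in an experiment where edgeR's filter for low counts left it out. In the Torin experiment 3 of the 9 members passed, Mcpt8, Gzme and Gzmc, and a member that passed only through the group in which it was high had to differ. Over the 12 libraries Mcpt8 held 5110 counts, or 75.6% of all member counts, Gzme 1510 counts, or 22.3%, and Gzmc 121 counts, or 1.79%. The other 6 members held 20 counts in all. So the label fits only in part, since the mast cell chymase Cma1 and granzyme B, the best known members, were near or at 0, and the account below is mainly one of Mcpt8, Gzme and Gzmc.

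The 6 members too low to judge in the Torin experiment were as follows. Gzmb, the granzyme that cuts after aspartate and triggers apoptosis, had 2 counts, 1 in a Torin D6 and 1 in a Torin D12 library. Gzmd had 6 counts, 4 of them in Torin D6 library 3 and 2 in DMSO D6 library 3. Gzmg had 1 count, in Torin D6 library 2, and Gzmf and Ctsg had 0 counts in all 12 libraries. A count of 0 in a group of 3 libraries allows up to 3 counts, which is 0.0363 to 0.0396 CPM in the Torin experiment and covers counting error only. Cma1 had 11 counts, with 0, 0 and 2 in Torin D12 libraries and 0, 1 and 8 in DMSO D12 libraries, and 0 in all Torin D6 and DMSO D6 libraries. Thus 8 of its 11 counts lay in DMSO D12 library 3.

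Mcpt8 was the most abundant member. It had 1657, 1108 and 1879 counts in Torin D6 libraries, or 56.2, 41.6 and 71.4 CPM, against 48, 17 and 22 counts in DMSO D6 libraries, or 1.87, 0.761 and 0.794 CPM. All 3 Torin D6 libraries lay far above all 3 DMSO D6 libraries. The group means were 56.4 ± 14.9 CPM in Torin D6 and 1.14 ± 0.629 CPM in DMSO D6 (SD, n = 3 each). The fitted log2 fold change was 5.62 with a standard error of 0.45. In the arm D12 it had 66, 64 and 155 counts in Torin libraries, or 2.51, 2.43 and 5.42 CPM, against 22, 28 and 44 counts in DMSO libraries, or 0.810, 0.992 and 1.62 CPM. The groups again did not overlap, and library 3 was the highest in each of them. The means were 3.45 ± 1.71 CPM in Torin D12 and 1.14 ± 0.425 CPM in DMSO D12 (SD, n = 3 each), with a log2 fold change of 1.60 and a standard error of 0.42.

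Gzme, an orphan granzyme of mice, had lower levels and a similar contrast in the arm D6. It had 465, 327 and 507 counts in Torin D6 libraries, or 15.8, 12.3 and 19.3 CPM, against 9, 5 and 6 counts in DMSO D6 libraries, or 0.350, 0.224 and 0.217 CPM. The libraries kept the order seen for Mcpt8 within Torin D6, with library 3 highest and library 2 lowest. The means were 15.8 ± 3.49 CPM in Torin D6 and 0.263 ± 0.0750 CPM in DMSO D6 (SD, n = 3 each), a log2 fold change of 5.88 with a standard error of 0.35. In the arm D12 Gzme had 50, 46 and 82 counts in Torin libraries, or 1.90, 1.74 and 2.87 CPM, against 6, 2 and 5 counts in DMSO libraries, or 0.221, 0.0708 and 0.184 CPM. The groups did not overlap in this arm either. The means were 2.17 ± 0.609 CPM in Torin D12 and 0.159 ± 0.0782 CPM in DMSO D12 (SD, n = 3 each), a log2 fold change of 3.75 with a standard error of 0.37.

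Gzmc, another granzyme of activated mouse cytotoxic cells, was low throughout. It had 39, 37 and 26 counts in Torin D6 libraries, or 1.32, 1.39 and 0.987 CPM, against 0, 2 and 2 counts in DMSO D6 libraries, or 0, 0.0895 and 0.0722 CPM. The groups did not overlap, and Torin D6 library 3, the highest for Mcpt8 and Gzme, was the lowest for Gzmc. The summed counts of 102 in Torin D6 and 4 in DMSO D6 gave a ratio of CPM of 23.4, with a 95% interval of 8.88 to 87.7 that covers counting error only. The fitted log2 fold change was 4.43 with a standard error of 0.78. In the arm D12 Gzmc had 3, 1 and 7 counts in Torin libraries, or 0.114, 0.0379 and 0.245 CPM, against 1, 3 and 0 counts in DMSO libraries, or 0.0368, 0.106 and 0 CPM. The groups overlapped, and the ratio of summed counts, 11 in Torin D12 and 4 in DMSO D12, was 2.80 with an interval of 0.828 to 12.0.

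**Figure D1:**
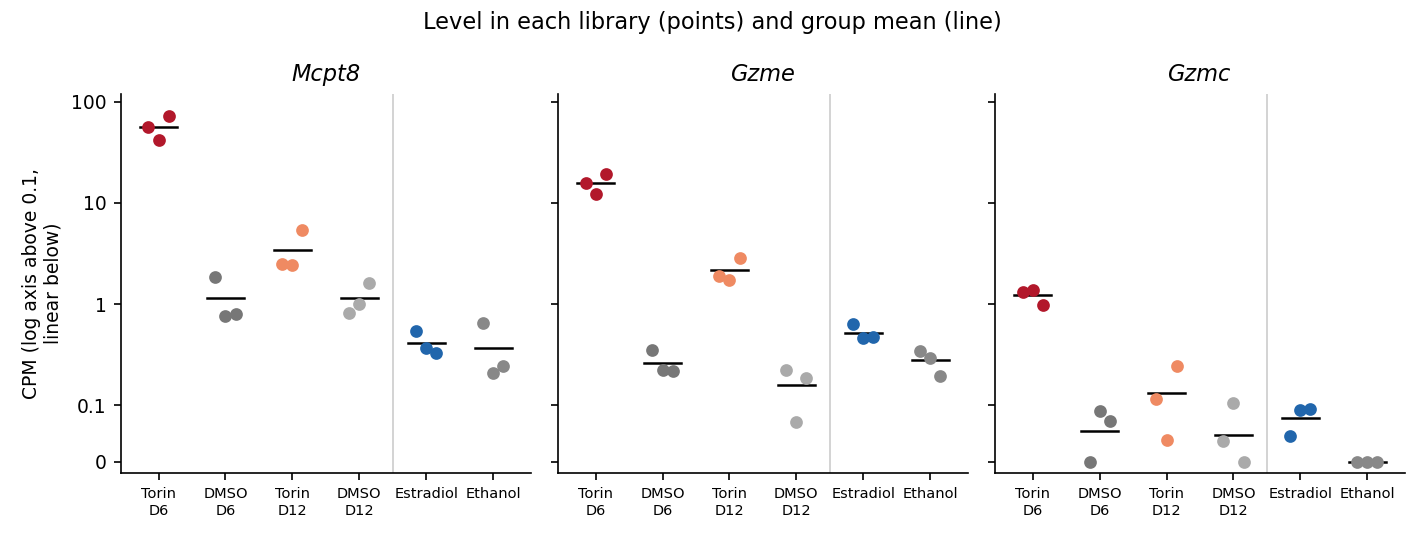
Level of Mcpt8, Gzme and Gzmc in CPM in each of the 18 libraries (points) with the group mean (line), on an axis that is logarithmic above 0.1 CPM and linear below. The grey line separates the Torin experiment from the estradiol experiment, which was scaled separately. Torin D6 libraries of Mcpt8 sit between 41.6 and 71.4 CPM, and DMSO D6 libraries between 0.761 and 1.87 CPM.

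In the arm D6 all 3 members tested were higher in Torin past an adjusted p of 0.05, where 19.8% of the 18112 genes tested were higher. All 3 groups of Torin libraries lay above their DMSO libraries, as did 24.2% of genes. In the arm D12 the number was 2 of 3, Mcpt8 and Gzme, where 10.8% of genes were higher, and their libraries did not overlap, as for 20.7% of genes. These counts stand beside the share of all genes only for scale, because values of the D6 contrast chose the members. Gzmc also passed the filter only through its Torin D6 libraries, and Gzme only through Torin libraries. The filter thus favoured their calls and their lack of overlap in advance. The log2 fold change of Mcpt8 in the arm D12 was not past the threshold without Torin D12 library 3 (1.11), DMSO D12 library 1 (1.41) or DMSO D12 library 2 (1.51). Among all genes ordered by fold change, Gzme, Mcpt8 and Gzmc stood at places 19, 24 and 54 of the rises in the arm D6, and at places 36, 322 and 452 in the arm D12.

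The Torin effects of Mcpt8 and Gzme were smaller in D12 than in D6, and the difference for Gzmc did not pass. The effect in D12 minus that in D6 was -4.02 on the log2 scale for Mcpt8 (standard error 0.60), -2.13 for Gzme (0.57) and -3.04 for Gzmc (1.40), which ranged from -3.82 without Torin D12 library 3 to -1.84 without DMSO D12 library 2. The D6 part of each difference had chosen the genes, so no p-value is given. Choice by a large rise in D6 by itself favours a difference below 0. For this signed difference 5.03% of all genes passed above 0 and 5.55% below 0, and of the 3 members Mcpt8 and Gzme passed below 0, which makes 2 of 3. Gzme did not pass when any of 8 libraries was left out (-2.10 to -1.82). Within a library, Torin D12 organoids had 1.32 to 1.89 counts of Mcpt8 per count of Gzme, against 3.39 to 3.71 in Torin D6 organoids, with no overlap. In DMSO libraries the same ratio rested on 2 to 9 counts of Gzme and was 3.67 to 14 in DMSO D12 and 3.40 to 5.33 in DMSO D6. Gzmc counts came to 2.17 to 8.54% of Gzme counts in Torin D12 and 5.13 to 11.3% in Torin D6, which overlapped.

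Between the DMSO arms no member differed past the threshold. The log2 difference of DMSO D12 minus DMSO D6 was -0.0066 for Mcpt8 (standard error 0.46), -0.73 for Gzme (0.47) and -0.12 for Gzmc (1.1). None of the 3 passed edgeR's quasi-likelihood test at an adjusted p of 0.05, none had an unadjusted p under 0.05, and neither DESeq2 nor limma called any. Over all genes 1 of 18112, or 0.00552%, passed. The libraries of the arms overlapped for all 3 members. They did not overlap, in either direction, for 12.2% of genes, and DMSO D12 lay wholly above DMSO D6 for 6.74%. The DMSO D6 libraries also entered the contrast that chose the members, and at 0 to 48 counts per library a moderate difference was not detectable.

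Per kilobase of transcript (836 bases for Mcpt8, 916 for Gzme and 894 for Gzmc), which allows levels of different genes to be set side by side, Torin D6 organoids held 67.5 ± 17.8 CPM per kilobase of Mcpt8, 17.2 ± 3.81 of Gzme and 1.38 ± 0.241 of Gzmc (SD, n = 3). In Torin D12 organoids the same quantity was 4.13 ± 2.04, 2.37 ± 0.665 and 0.148 ± 0.117. Mcpt8 was above Gzme in every Torin library by counts, and Gzme above Gzmc. In DMSO organoids Mcpt8 stood at 1.36 CPM per kilobase in each arm, and Gzme at 0.173 in D12 and 0.288 in D6. By group, Mcpt8 levels ran from Torin D6 over Torin D12 to the DMSO groups, whose ranges overlapped. Gzme followed the same order, with DMSO ranges of 0.0708 to 0.221 CPM in D12 and 0.217 to 0.350 CPM in D6 that overlapped. For Gzmc the order was Torin D6 first, with Torin D12, DMSO D6 and DMSO D12 overlapping.

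Estradiol left the cluster near the limit of detection. Only Gzme passed the filter, and the other 8 members were too low to judge. Gzme had 14, 10 and 10 rounded estimated counts in estradiol libraries, or 0.630, 0.462 and 0.470 CPM, against 8, 7 and 4 in ethanol libraries, or 0.346, 0.294 and 0.194 CPM. The estradiol libraries all lay above the ethanol libraries, as they did for 23.6% of the 15358 genes tested. Gzme passed the filter only through its estradiol libraries, so the filter itself favoured this separation. The fold change and test below carry the same limit and do not compare evenly with all genes. The means were 0.521 ± 0.0948 CPM in estradiol and 0.278 ± 0.0772 CPM in ethanol (SD, n = 3 each), and the log2 fold change was 0.88 with a standard error of 0.43. It did not pass edgeR's quasi-likelihood test (adjusted p = 0.136, unadjusted p = 0.0615), where 34.0% of genes passed in either direction, nor was it called by DESeq2 or limma. The ratio of summed counts, 34 in estradiol and 19 in ethanol, was 1.85 with a counting interval of 1.03 to 3.44.

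Mcpt8 had 12, 8 and 7 counts in estradiol libraries, or 0.540, 0.369 and 0.329 CPM, against 15, 5 and 5 in ethanol libraries, or 0.649, 0.210 and 0.243 CPM. The groups overlapped, and the ratio of the summed counts was 1.12 with an interval of 0.625 to 2.01. Gzmc had 1, 2 and 2 counts in estradiol libraries and 0 in each ethanol library, with an upper limit of 3 counts, or 0.0445 CPM, in ethanol. Gzmd had 2 counts in estradiol and 1 in ethanol, Gzmf 0 in estradiol and 2 in ethanol, and Cma1 1 in each. Gzmb, Gzmg and Ctsg had 0 counts in all 6 libraries, which allows 0.0460 CPM in estradiol and 0.0445 CPM in ethanol. The experiments were scaled separately, so the levels of Gzme in ethanol and in DMSO organoids stand beside each other without a test.

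The assignment of reads among the granzymes is uncertain. The transcripts of Gzme and Gzmd, from GENCODE M21, were 94.8% identical over 916 aligned bases, and 57.9% of the 31-base words of Gzme occurred in no other gene. Gzmd shared the most of them, 26.5%. For Gzmc 85.2% of words occurred in no other gene, and for Mcpt8 100%, so Mcpt8 shared none. With the counts of Gzmc to Gzmg summed into 1 feature, the log2 fold change of that sum was 5.62 in D6 and 3.46 in D12, close to that of Gzme alone.

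On the chromosome, the RefSeq order places Cma1 first, then the mast cell protease genes Mcpt1, Mcpt2, Mcpt9 and Mcpt4, then Mcpt8, Ctsg, Gzme, Gzmd, Gzmg, Gzmn, Gzmf, Gzmc and Gzmb. The span held 25 annotated genes, 15 of them protein-coding, and only Mcpt8, Gzme and Gzmc passed the filter. The 6 protein-coding genes in the span that are not members, Cma2, Mcpt1, Mcpt2, Mcpt9, Mcpt4 and Gzmn, had at most 2 counts each over 12 libraries. Thus the detected members were not adjacent: Ctsg with 0 counts lay between Mcpt8 and Gzme, and Gzmd, Gzmg, Gzmn and Gzmf with 0 to 6 counts lay between Gzme and Gzmc.

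Around the span, 17 of 20 flanking genes were tested. In the arm D6, 2 rose, 8 fell and 7 did not pass, where 19.8% of all genes rose and 19.3% fell. In the arm D12 1 rose, 3 fell and 13 did not pass, where 10.8% of all genes rose and 14.6% fell, so the falls in D12 were near the background. Atp12a, an ion pump gene and the first neighbour beyond Gzmb, rose in D6 to 52.6 CPM in Torin against 5.00 CPM in DMSO, a log2 fold change of 3.40 with a standard error of 0.20 (adjusted p = 2e-07). In D12 it had 4.78 CPM in Torin and 5.68 CPM in DMSO and did not pass (log2 -0.25, standard error 0.19). Gjb2, which encodes the gap junction protein connexin 26, fell in D12 to 21.97 CPM in Torin against 192.2 CPM in DMSO, a log2 fold change of -3.13 with a standard error of 0.19 (adjusted p = 1.01e-06). In D6 it had 113.0 CPM in Torin and 104.8 CPM in DMSO and did not pass. At the other end Sdr39u1, the gene before Cma1, did not pass in either arm (0.22 in D6, 0.21 in D12), and Khnyn beyond it fell in both (-0.996 and -0.77).

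**Figure D2:**
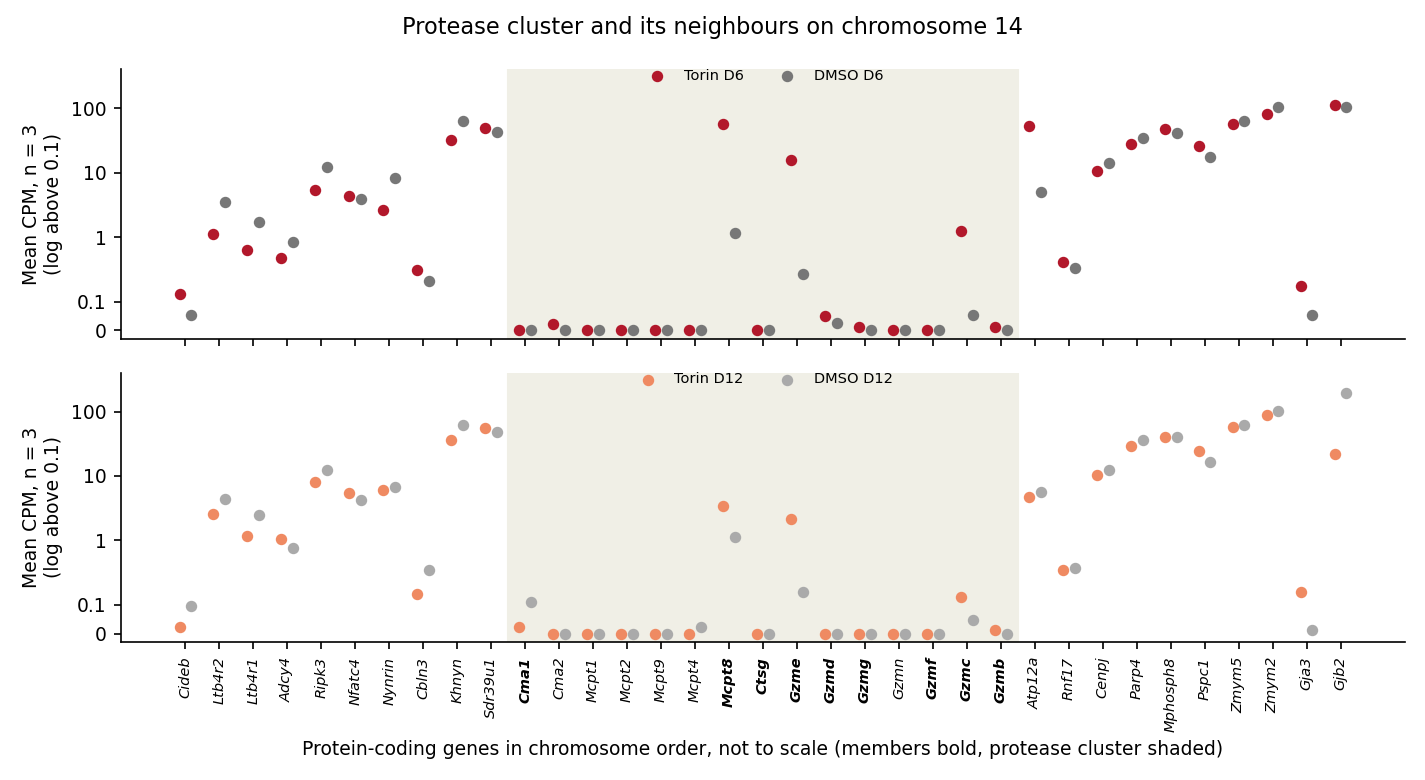
Mean CPM of the protein-coding genes of the span (shaded, members in bold) and of 10 genes on each side, in chromosome order and not to scale, in Torin and DMSO organoids of D6 (top) and D12 (bottom), n = 3 libraries each, on an axis logarithmic above 0.1 CPM. Within the span Mcpt8, Gzme and Gzmc stand out in D6, and beyond it Atp12a, at 52.6 CPM in Torin and 5.00 CPM in DMSO.

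Of the 9 other granzymes and cluster proteases listed, Gzma, Gzmk, Gzmm, Gzmn, Mcpt1, Mcpt2, Mcpt4, Mcpt9 and Cma2, only Gzmm was tested, and 6 had 0 counts in all 12 Torin libraries. Gzmm, which lies outside the cluster, had 0.295 ± 0.337 CPM in Torin D6 and 0.709 ± 0.164 CPM in DMSO D6 and did not pass (log2 -1.26, standard error 0.66). In D12 its log2 fold change was 0.22. Summed over this list, Torin D6 libraries had 1 to 18 counts and DMSO D6 libraries 13 to 23.

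Genes that load, store and activate granule proteases passed about as often as all genes in D6. Of 10 listed 8 were tested, and in D6 1 rose and 2 fell (edgeR's quasi-likelihood test, adjusted p under 0.05), where 39.1% of all genes passed, 19.8% higher and 19.3% lower. DESeq2 called 2 higher and 2 lower, limma 1 and 2, and at an unadjusted p under 0.05 3 were higher and 2 lower. The median log2 fold change was 0.061, against 0.048 over all genes tested. Ctsc, the dipeptidyl peptidase that activates granzymes, fell to 447.3 ± 25.5 CPM in Torin D6 against 593.2 ± 36.0 CPM in DMSO D6 (log2 -0.41, standard error 0.082, adjusted p = 0.00206). Ctsh, a cathepsin that can also process granzyme B, rose by 0.35 (0.089) in D6 and fell by 0.80 (0.089) in D12. Ndst1, which sulfates heparan chains, fell in both arms, and Ctsl fell by 0.98 (0.23) in D12. In D12 0 of the 8 rose and 3 fell, where 25.4% of all genes passed, with a median of -0.22 against 0.012 over all genes. None of the 8 was higher in D12 at an unadjusted p under 0.05 or by DESeq2 or limma.

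Perforin, Prf1, had 5 counts in Torin D6, 0 in DMSO D6, 0 in Torin D12 and 1 in DMSO D12. Serglycin, Srgn, the granule proteoglycan, had 18 counts in Torin D6 and 38 in DMSO D6, and 6 in Torin D12 and 36 in DMSO D12, and passed in neither arm (log2 -1.16 and -2.49). Cpa3, the mast cell carboxypeptidase, had 0 counts in every group but DMSO D12, which had 3.

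More inhibitors of these proteases fell than rose. Of 16 listed genes 9 were tested, and in D6 1 rose and 5 fell, where 19.8% of all genes rose and 19.3% fell, with a median log2 fold change of -1.04 against 0.048 over all genes. Serpinb1a, an inhibitor of neutrophil serine proteases, fell to 0.721 ± 0.195 CPM in Torin D6 against 4.88 ± 1.63 CPM in DMSO D6 (log2 -2.74, standard error 0.31, adjusted p = 2.77e-05). It also fell in D12, to 0.415 ± 0.134 CPM in Torin against 6.08 ± 0.381 CPM in DMSO (log2 -3.85, standard error 0.33, adjusted p = 9.47e-06). Slpi, the secretory leukocyte protease inhibitor, averaged 1111 ± 269 CPM in Torin D6 and 3227 ± 156 CPM in DMSO D6 and fell in both arms (-1.54 and -1.04). Serpinb9, which inhibits granzyme B, fell by 1.38 (0.19) in D6, to 8.13 CPM in Torin against 21.1 CPM in DMSO, and did not pass in D12. Serpinb6b and Serpina3n fell in D6, by 1.65 and 1.04. Spint2, a membrane inhibitor of epithelial serine proteases, rose by 0.52 (0.18) in D6. In D12 1 inhibitor rose, Serpina3g (2.61, standard error 0.73), and 4 fell, where 10.8% of all genes rose and 14.6% fell, with a median of -0.45 against 0.012 over all genes. The rises are not shared by all tools, since limma called no inhibitor higher in either arm.

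Other proteases of the trypsin fold showed no common direction in D6. Of 22 listed 15 were tested, 4 rose and 5 fell in D6, beside 19.8% and 19.3% of all genes, with a median of 0.028. Tmprss4, a membrane protease, rose to 13.8 ± 0.997 CPM in Torin D6 against 7.58 ± 0.842 CPM in DMSO D6 (log2 0.87, standard error 0.15) and fell in D12 to 1.14 ± 0.169 CPM in Torin against 9.98 ± 1.02 CPM in DMSO (log2 -3.12, standard error 0.17). Its D12 effect minus its D6 effect was -3.99 with a standard error of 0.22 (edgeR's test of the difference, adjusted p = 1.85e-06), where 10.6% of all genes passed. Prss22 and Prss23 rose in D6 (1.13 and 0.62), and Tmprss2, Tmprss11e and Prtn3, the neutrophil proteinase 3 gene, fell in both arms (-1.09, -2.47 and -2.15 in D6). In D12 0 rose and 7 fell, beside 10.8% and 14.6% of all genes, with a median of -0.42, and none was higher at an unadjusted p under 0.05 or by DESeq2 or limma.

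**Figure D3:**
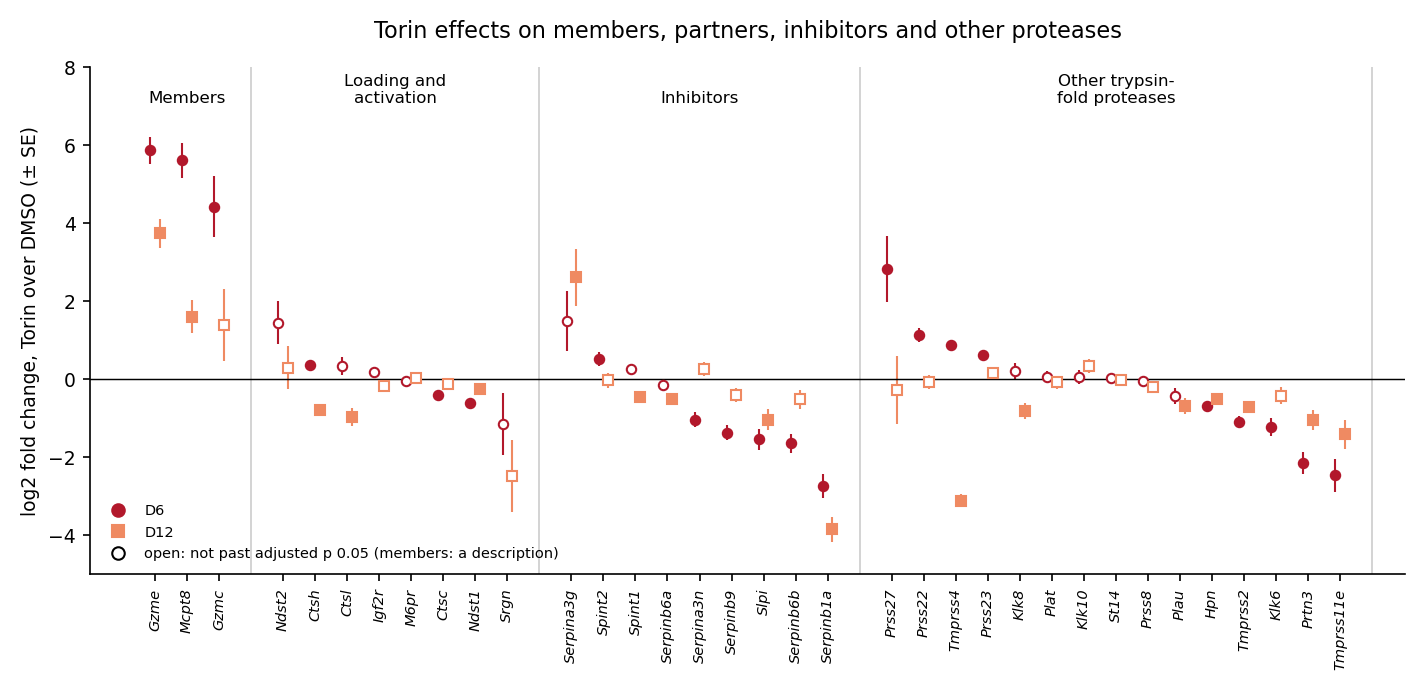
Log2 fold change of Torin over DMSO with its standard error for the 3 members tested, their partners, inhibitors and other proteases, in D6 (circles) and D12 (squares). Open symbols did not pass an adjusted p of 0.05, as for Gzmc in D12, and for the members the fill is a description, since values of D6 chose them. The members lie above every other gene shown in D6, from 4.43 to 5.88, whereas the inhibitors reach down to -2.74.

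Between the DMSO arms no gene of these lists passed, where 0.00552% of all genes did. At an unadjusted p under 0.05 in edgeR 1 of 8 partners and 3 of 15 other proteases were higher in D12, beside 378 of 18112 genes. DESeq2 and limma called none of these lists, and over all genes they called 14 and 1. Under estradiol, 1 of 7 partners fell (Ndst1, -0.29), 2 of 8 inhibitors fell (Serpina3n, -0.80, and Slpi, -0.22), and 4 of 14 other proteases rose while 6 fell, where 17.4% of all genes rose and 16.6% fell. No partner or inhibitor rose under estradiol in edgeR. At an unadjusted p under 0.05 2 partners and 0 inhibitors were higher, beside 3358 of 15358 genes. DESeq2 called 1 partner higher and limma none, beside 2277 and 1905 genes. Tmprss4 fell to 9.80 ± 1.70 CPM in estradiol against 19.3 ± 0.4997 CPM in ethanol (log2 -0.98, standard error 0.11, adjusted p = 5.24e-06). Median log2 fold changes were -0.029 for partners, -0.010 for inhibitors and -0.18 for other proteases, against -0.0060 over all genes.

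Since the members are known from leukocytes, markers of those cells were read in the same libraries. In bulk RNA fewer cells of a type and less RNA per cell cannot be told apart. Of the 14 markers of T and natural killer cells none was tested, and 7 had 0 counts in all 12 Torin libraries, Cd3e among them. Their summed level was 0.836 to 1.28 CPM in Torin D6 and 0.492 to 0.856 CPM in DMSO D6, and 0.190 to 0.685 CPM in Torin D12 and 0.638 to 0.921 CPM in DMSO D12. The summed level of the 9 members was 55.3 to 91.8 CPM in Torin D6 and 1.07 to 2.22 CPM in DMSO D6, and 4.21 to 8.61 CPM in Torin D12 and 1.07 to 2.10 CPM in DMSO D12. Trac, the constant part of the T cell receptor alpha chain, had 16, 23 and 6 counts in Torin D6 libraries against 3, 1 and 4 in DMSO D6 libraries, and it was too low to be tested.

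Of 6 basophil markers, Ms4a2 and Fcer1a, the chains of the IgE receptor, had 0 counts in all 12 libraries. Prss34, also listed, was not tested, and 3 of the 6 had 10 counts or fewer over the 12 libraries. The summed level was 14.1 to 15.8 CPM in Torin D6 and 8.63 to 10.6 CPM in DMSO D6, and 10.4 to 13.2 CPM in Torin D12 and 8.29 to 10.9 CPM in DMSO D12. Cd69, an activation marker of many leukocytes, rose in both arms. It had 54, 61 and 43 counts in Torin D6 libraries against 4, 1 and 2 in DMSO D6 libraries (log2 4.31, standard error 0.56, adjusted p = 8.7e-05), and 11, 11 and 27 counts in Torin D12 libraries against 0, 0 and 1 in DMSO D12 libraries (log2 5.16, standard error 0.78, adjusted p = 0.000544). Within Torin D6 it was highest in library 2 and lowest in library 3, the reverse of Mcpt8 and Gzme. Il3ra made up most of the summed level in every group, which in Torin D6 was 376 to 465 counts per library. It rose by 0.48 (0.15) in D6 and did not pass in D12. Cd200r3, an activating receptor of basophils and mast cells, had 16, 7 and 9 counts in Torin D6 libraries against 2, 0 and 4 in DMSO D6 libraries (log2 2.24, standard error 0.99, adjusted p = 0.0966). In D12 it had 15, 7 and 23 counts in Torin libraries against 0, 6 and 0 in DMSO libraries (log2 2.85, standard error 0.97, adjusted p = 0.0501). Its Torin libraries lay above its DMSO libraries in both arms, as for 24.2% of genes in D6 and 20.7% in D12. In D12 this rested on 7 counts in the lowest Torin library against 6 in the highest DMSO library. Of the 3 basophil markers tested, 2 rose in D6 and 1 in D12 by edgeR, where 19.8% and 10.8% of all genes rose. Cd69 and Cd200r3 passed the filter only through Torin libraries, so the filter favoured a higher level in Torin for both. The counts of calls here therefore do not compare evenly with all genes. DESeq2 called 2 higher in each arm, beside 3644 of 18112 genes in D6 and 2225 in D12. By limma 3 were higher in D6 and 2 in D12, beside 2889 and 1687 genes. At an unadjusted p under 0.05 the numbers were 3 in D6 and 2 in D12, beside 4465 and 3010 genes. The part of these genes in the level of the members was not tested.

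Of 10 mast cell markers 2 were tested. Kit, which mammary luminal progenitors also express, fell by 0.75 (0.11) in D6 and made up most of the summed level of 227 to 249.7 CPM in Torin D6 and 343 to 448 CPM in DMSO D6. In D12 that level was 328 to 431 CPM in Torin and 386 to 427 CPM in DMSO. Neutrophil markers summed to 5.41 to 19.6 CPM in Torin D6 and 5.82 to 7.62 CPM in DMSO D6, and to 4.32 to 11.3 CPM in Torin D12 and 5.81 to 8.47 CPM in DMSO D12. Of the 3 tested, Camp and S100a8 rose in D6 (2.66 and 1.97) and Prtn3 fell, where 19.8% of all genes rose and 19.3% fell. Elane had at most 2 counts and Mpo at most 4 counts in a library.

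The summed level of 9 macrophage markers was lower in Torin organoids, at 1.41 to 1.99 CPM in Torin D6 and 6.34 to 11.4 CPM in DMSO D6. In D12 it was 1.90 to 2.10 CPM in Torin and 7.79 to 11.9 CPM in DMSO. That level rested on few genes, since 5 of the 9 had 0 counts in all 12 libraries. In DMSO D6 the sum was 163 to 254 counts per library, of which Csf1r held 11 to 22 and Cd68 most of the rest. Only these 2 were tested, and both fell in D6 and Cd68 in D12, where 19.3% and 14.6% of all genes fell. Pan-leukocyte markers summed to 0.577 to 1.101 CPM in Torin D6 and 1.24 to 1.79 CPM in DMSO D6, and to 0.758 to 1.559 CPM in Torin D12 and 1.877 to 2.32 CPM in DMSO D12. Ptprc, which encodes the leukocyte antigen CD45, had 7, 11 and 16 counts in Torin D6 libraries against 3, 3 and 4 in DMSO D6 libraries (log2 1.63, standard error 0.47, adjusted p = 0.0175), while Cd53 fell by 2.39. In D12 Ptprc had 28 counts in Torin and 26 in DMSO.

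The tissue label held in all groups. All 8 epithelial markers were tested and summed to 9247 to 10580 CPM in Torin D6 and 6693 to 7885 CPM in DMSO D6, and to 5681 to 6821 CPM in Torin D12 and 8345 to 8678 CPM in DMSO D12. Of the 8, 4 rose and 2 fell in D6, where 19.8% of all genes rose and 19.3% fell. In D12 0 rose and 5 fell, where 10.8% of all genes rose and 14.6% fell. Fibroblast markers were present too, and all 6 fell in D6, from Lum (-2.53) to Dcn (-1.36), beside 19.3% of all genes. Their sum was 260 to 292 CPM in Torin D6 against 839 to 1188 CPM in DMSO D6. In D12 1 of the 6 fell, beside 14.6% of all genes. The sums overlapped, at 674.6 to 971.8 CPM in Torin and 849 to 981.2 CPM in DMSO. These shifts accompany the level of the members in D6, and their part in it was not tested.

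**Figure D4:**
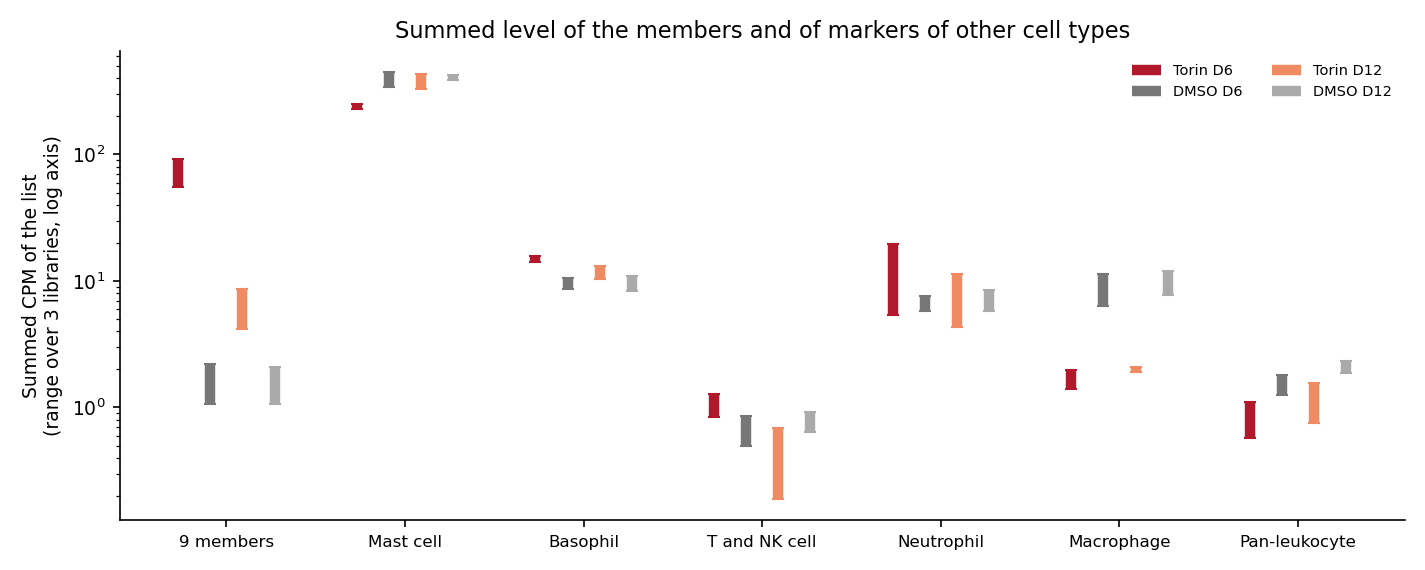
Summed CPM of the 9 members and of 6 lists of leukocyte markers, as the range over 3 libraries in each group of the Torin experiment, on a logarithmic axis. The members reach 55.3 to 91.8 CPM in Torin D6 and 1.07 to 2.22 CPM in DMSO D6, whereas T and NK cell markers reach at most 1.28 CPM in any group.

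Over the 12 Torin libraries the log2 CPM of Gzme and Mcpt8 had a Pearson r of 0.953, and 0.656 once the group means were taken out. For Gzmc r was 0.911 with Mcpt8 and 0.872 with Gzme, and -0.209 and -0.288 without the group means. The libraries of a group share treatment, so these values mainly follow the 4 groups. By the same measure the genes most like Mcpt8 were Mmp13, a collagenase (0.997), Adamts5, an aggrecan protease (0.993), Ptprk (0.991), Fam107b (0.991) and Fam177a (0.990). With group means taken out these had r of 0.939, 0.889, 0.866, 0.808 and 0.867. They were picked by r over the same libraries, so these values are not separate from that choice. Mmp13 had 1067 CPM in Torin D6 and 195.8 CPM in DMSO D6, and 327.5 CPM in Torin D12 and 188.1 CPM in DMSO D12. Adamts5 had 297 CPM in Torin D6 and 38.1 CPM in DMSO D6, and 64.8 CPM in Torin D12 and 45.1 CPM in DMSO D12.

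The genes most like Gzme were others, Atp6v0e2, a proton pump subunit (0.990), Vnn3 and Vnn1, pantetheinases (0.990 and 0.988), AI506816 (0.990) and Epha3, an ephrin receptor (0.987). Without the group means their r was 0.610, 0.547, 0.593, 0.550 and 0.154, in the order Atp6v0e2, Vnn3, Vnn1, AI506816 and Epha3. The same limit of choice holds for these values. Vnn1 had 404 CPM in Torin D6 and 37.8 CPM in DMSO D6, and 111 CPM in Torin D12 and 34.1 CPM in DMSO D12. The lists of the 5 genes most like Mcpt8 and most like Gzme shared no gene. Likeness was measured over libraries alone and says nothing of shared function.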

How the data were processed

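Polyadenylated RNA was measured in 18 libraries, whose groups were taken from the sample titles. The authors deposited whole-number counts per symbol for the Torin experiment. For estradiol and ethanol the authors deposited estimated counts, and 69.2% of the non-zero values were not whole. For both, the authors also deposited a normalized signal, used only in 1 alternative. Per the submitters' processing notes, kallisto, DESeq2, Trim Galore, cutadapt, MultiQC and FastQC were used with the genome GRCm39, without roles or versions; how reads shared by similar genes were assigned is not given in the sources used here. The series design counts more Torin samples than the 12 used, and any others were not analysed here. Totals were 23239364 to 28910688 counts per library in the Torin experiment and 20637473 to 24312079 after rounding in the estradiol experiment.

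Each experiment was fitted alone in R 4.3.3 with edgeR 4.0.16: filterByExpr, TMM scaling, group means and the quasi-likelihood test, and a gene rose or fell where its p, adjusted after Benjamini and Hochberg, was under 0.05. The step was tested on simulated data. The filter left 18112 genes in the Torin and 15358 in the estradiol experiment, with a biological coefficient of variation of 20.2% and 5.27%. The comparisons were Torin against DMSO in each arm, the difference of these effects, DMSO D12 against D6, and estradiol against ethanol. Standard errors are those of the fit, and intervals (95%) and limits (3 counts) cover counting error only. Estradiol rows were matched to symbols through the deposited normalized table, and all 9 members were found in both tables. Likeness was Pearson's r of log2 CPM with a prior count of 2. Promoter windows and gene order are from RefSeq on GRCm38.p6, and transcripts from GENCODE M21; protein sequences were not used. Python 3.11.15, pandas 2.3.3, Biopython 1.88 and matplotlib 3.10.9 served for joins, sequences and figures.

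The members and lists (other granzymes and cluster proteases, partners, inhibitors, other trypsin-fold proteases, markers of cell types) were chosen with earlier results of these data known. The text names all members, of each list at most 6 genes past the threshold by lowest p together with genes whose low counts matter, the 5 genes most like Mcpt8 and like Gzme, and neighbours on the chromosome. Low-count genes, neighbours and markers were picked for naming with their values in view. Alternatives were DESeq2 1.42.0, limma 3.58.1 on log2 of the signal plus 1, other size factors, no filter, a filter of 1 CPM in 3 libraries, the compared groups alone, a block for replicate number, summed granzyme counts, and each library left out.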

Additional observations from a re-analysis of the deposited data

Results flagged for a closer look

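The Torin effects of 2 members differed between the arms. For Mcpt8 the log2 fold change of Torin over DMSO was 1.60 in D12 and 5.62 in D6, a difference of -4.02 with a standard error of 0.60. For Gzme it was 3.75 in D12 and 5.88 in D6, a difference of -2.13 with a standard error of 0.57. Both differences passed edgeR's test of the difference between the effects at an adjusted p of 0.05, as did 10.6% of all genes, 5.55% towards a lower effect in D12. Values of the D6 arm chose these genes, and choice by a large rise in D6 favours a lower effect in D12, so passing is a description here. Mcpt8 passed with each of the 12 libraries left out, which does not remove the effect of that choice. Gzme did not pass when any of 8 libraries was left out, namely Torin D12 libraries 1 and 2, DMSO D12 libraries 1 and 3, Torin D6 libraries 1 and 3 and DMSO D6 libraries 2 and 3, with differences of -2.10 to -1.82. Length of treatment, starting day and batch tag cannot be told apart as sources of the difference.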

How the results depend on the processing

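The number of members past the threshold was 3 in D6, and 2 to 3 under the alternatives, with 2 under the filter of 1 CPM in 3 libraries, which removes Gzmc. In D12 it was 2, and 1 to 2 with a library left out, where Mcpt8 missed the threshold without Torin D12 library 3 or DMSO D12 library 1 or 2. For the difference of the effects it was 2, and 1 to 2 with a library left out, where Gzme missed it. It stayed at 0 for DMSO D12 against D6 and for estradiol under every alternative run. The fold changes of Gzme ranged from 5.62 to 6.13 in D6 and from 3.39 to 4.05 in D12. This range includes the summed counts of Gzmc to Gzmg, whose fold change in D6 was 5.62. Those of Mcpt8 ranged from 5.40 to 6.17 and from 1.11 to 1.93, and those of Gzmc from 3.87 to 4.89 and from 0.606 to 2.59. None of these fold changes changed sign. For DMSO D12 against D6 the sign of Mcpt8 turned with limma (0.0891) and without DMSO D6 library 1 (0.546), DMSO D12 library 1 (0.186) or DMSO D12 library 2 (0.0860), and that of Gzmc without DMSO D6 library 2 (0.339) or 3 (0.177) or DMSO D12 library 1 (0.0213) or 3 (0.411). With a library left out Mcpt8 ranged from -0.343 to 0.546 and Gzmc from -1.32 to 0.411 in this comparison, and the cause was not tested. Gzme under estradiol ranged from 0.70 to 1.06 and passed in no alternative. Over all genes, DMSO D12 against D6 called 1 gene, 14 by DESeq2, 4 without a filter, 16 in a fit of those groups alone and 2 without Torin D6 library 3. The difference of the effects called 1917 genes and 1219 without DMSO D6 library 3. Replicate numbers did not pair the libraries: same-numbered libraries of different groups had r of -0.0939 to 0.0931 in the Torin experiment (18 pairs, 0 over 0.1) and -0.0267 to -0.00972 in the estradiol experiment. With a block for replicate number, Mcpt8 had a log2 fold change of 5.59 in D6 and 1.56 in D12, Gzme 5.88 and 3.75, and no member's call changed. Members at a few counts per library are limited by depth.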
